A study of Mus musculus with 12 samples.

Results

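The genes described here are 10 regulators of alternative splicing that are known for their part in neurons, namely Rbfox1, Rbfox2, Rbfox3, Nova1, Nova2, Ptbp1, Ptbp2, Mbnl1, Mbnl2 and Celf4. They were chosen by symbol from a count table of 57132 features, and all 10 were found once and passed the filter on low counts that left 13902 features to test. The libraries came from the striatum of C57Bl/6 mice aged 10 months, 6 labelled TAAR5-KO (a knockout of trace amine-associated receptor 5, whose allele is not described in the sources used here) and 6 labelled TAAR5-WT (wild-type littermates). The study used male and female mice of each genotype. The tissue was a coronal slice from which the cortex had been cut away, so other regions of that slice could come with it. Ribosomal RNA was depleted, directional libraries were made and reads of 100 bases were counted per gene.

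Splicing regulators of this kind bind short motifs in pre-mRNA and change which exons are kept, so that neurons make protein forms that other cells do not. Rbfox proteins bind the motif UGCAUG, Nova proteins bind clusters of a short motif around UCAU, and polypyrimidine tract-binding proteins bind stretches rich in pyrimidines and mostly repress exons. During neuronal differentiation Ptbp1 gives way to Ptbp2, which in turn declines as neurons mature, while Mbnl proteins are best known for being trapped by expanded repeats in myotonic dystrophy. Each gene has close relatives, and a count per gene is informative only where reads can tell the relatives apart.

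The 12 libraries held 11269915 to 34824450 counts, of which 64.3% to 88.1% were on ribosomal RNA features, leaving 1819907 to 6399188 counts for other genes. The few counts of the targeted gene went against the labels. Taar5 had 2, 3, 2, 1, 2 and 6 counts in the libraries labelled TAAR5-KO (NK1 to NK6) and 0, 1, 0, 0, 2 and 0 in those labelled WT (NK7 to NK12). These counts were close to the floor, and only NK6 exceeded the 3 counts that a gene without counts may have. The labels are therefore used as names, and every direction given below follows the labels. Defining markers of spiny neurons, the main striatal neuron, were present in all libraries, with a summed level of 372 to 477 CPM, the counts scaled to a common library size, under the label TAAR5-KO and 221 to 410 CPM under the label WT. The lowest of these sums was that of NK11. Markers of cortical pyramidal neurons summed to 25.3 to 94.0 and 31.5 to 103 CPM. Those of the choroid plexus summed to 2.53 to 467 and 3.37 to 285 CPM, so both groups held libraries with much and with little of that tissue.

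Shared sequence bears on whether the ratios between relatives reported further on rest on distinct reads. The coding sequences below show how far relatives differ around their longest shared run, which need not be their most alike stretch. Each is the 100 coding bases around the longest run that a pair shares, written 5′ to 3′ on the gene's own strand from GRCm39 with GENCODE M39, with the shared run in capitals.
Rbfox1: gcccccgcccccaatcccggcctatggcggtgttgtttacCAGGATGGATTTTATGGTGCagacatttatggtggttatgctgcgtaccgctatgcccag
Rbfox3: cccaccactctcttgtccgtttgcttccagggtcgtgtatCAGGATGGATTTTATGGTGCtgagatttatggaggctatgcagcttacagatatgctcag
The Rbfox1 stretch lies in 3 exons on the plus strand (chr16:7170899-7170928, chr16:7181729-7181768, chr16:7193769-7193798), and that of Rbfox3 lies in 2 exons on the minus strand (chr11:118387177-118387246, chr11:118386079-118386108). The shared run was 20 bases long, and 70 of the 100 positions were identical. Of the pairs of members, Rbfox1 and Rbfox2 shared the longest run, 29 bases, with 90 of the 100 positions identical.
Rbfox1: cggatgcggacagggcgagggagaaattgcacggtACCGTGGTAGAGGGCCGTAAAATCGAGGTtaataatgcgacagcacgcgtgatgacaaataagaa
Rbfox2: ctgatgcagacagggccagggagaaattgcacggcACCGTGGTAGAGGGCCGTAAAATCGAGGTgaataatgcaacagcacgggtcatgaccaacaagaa
These stretches lie on the plus strand at chr16:7110080-7110141, chr16:7111934-7111971 and on the minus strand at chr15:76989777-76989838, chr15:76987102-76987139, in 2 exons each. For the Ptbp pair, the run was 14 bases and 75 of 100 positions were identical.
Ptbp2: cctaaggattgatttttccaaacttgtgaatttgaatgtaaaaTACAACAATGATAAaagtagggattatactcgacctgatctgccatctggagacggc
Ptbp1: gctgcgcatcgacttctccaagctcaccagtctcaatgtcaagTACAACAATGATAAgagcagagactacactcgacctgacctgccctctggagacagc
They lie at chr3:119534022-119534121 on the minus strand and at chr10:79695653-79695752 on the plus strand, in 1 exon each. Over all exons, untranslated parts included, no member shared a run longer than 50 bases with a relative of its family, which is shorter than a read of 100 bases. Mbnl1 and Mbnl2 shared 26 bases, Nova1 and Nova2 shared 16, and the longest run joined Celf4 with Celf2. Outside the families, Ptbp1 had a near-identical copy, Gm4900 on chromosome 13, aligned at 94.7% identity over 699 bases and 96.9% over 883 bases. Gm4900 had 0 to 2 counts per library.

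The levels of the 10 genes spanned a wide range, with Celf4 and Rbfox1 at the top and Ptbp1 at the bottom. Levels between genes are given as CPM per kb of merged exon, as the mean ± SD over 12 libraries. Celf4, an RNA-binding protein expressed mainly in neurons, stood at 8.56 ± 0.743, followed by Rbfox1 at 7.54 ± 0.915. Rbfox3, whose protein is the neuronal marker NeuN, was at 4.32 ± 0.642. Mbnl2, the member of its family best known in brain, was at 4.20 ± 0.267 and Ptbp2 at 3.77 ± 0.529, with Rbfox2 at 3.23 ± 0.283. The lower levels were those of Nova2 at 2.04 ± 0.229, Mbnl1 at 1.62 ± 0.114, Nova1 at 1.58 ± 0.126 and Ptbp1, the repressor of neuronal exons in other cell types, at 0.509 ± 0.108.
Neighbours in this order were mostly not apart. Only Rbfox1 over Rbfox3, Rbfox2 over Nova2 and Nova1 over Ptbp1 had ranges that did not touch. Rbfox3 was above Mbnl2 in 7 of 12 libraries, and Mbnl1 above Nova1 in 7 of 12. Nova2 was above Mbnl1 within each of the 12 libraries although their ranges over libraries overlapped. The length in the denominator decided much of the order. Per kb of the canonical transcript, a length chosen after seeing the data, Mbnl2 came first at 22.1 ± 1.40, before Celf4 at 16.5 ± 1.43 and Rbfox1 at 13.7 ± 1.67, and Ptbp1 was again last at 0.776 ± 0.165.

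**Figure D1:**
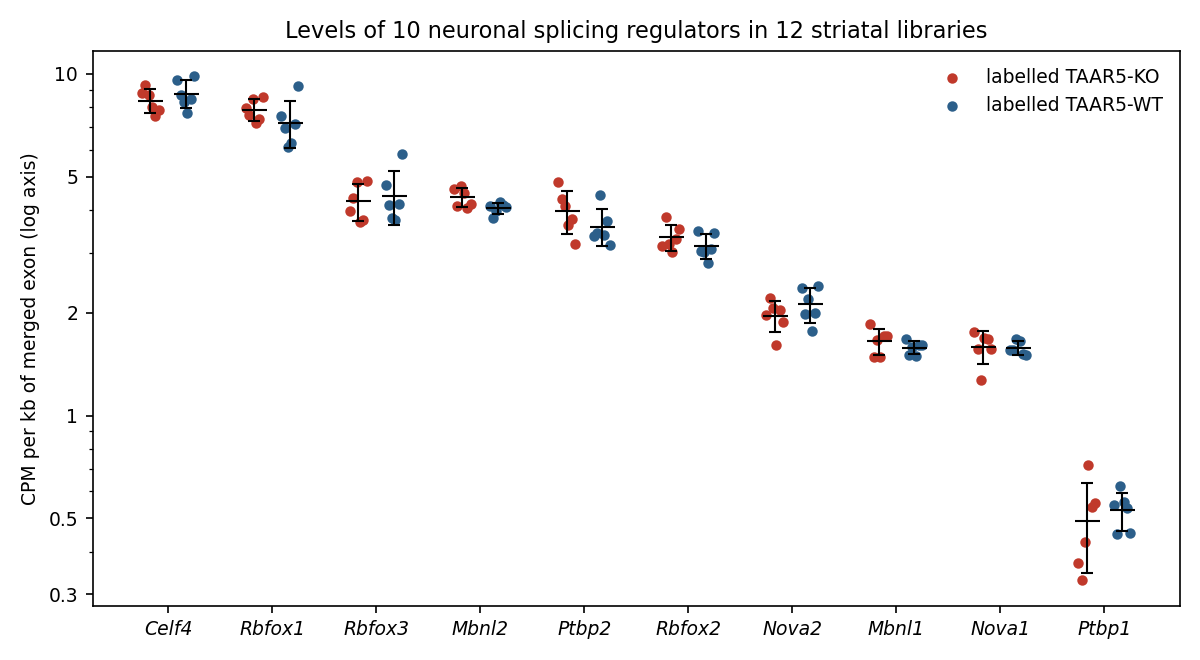
CPM per kb of merged exon (log axis) of the 10 regulators, 1 point per library, red for libraries labelled TAAR5-KO and blue for those labelled TAAR5-WT, with the mean and SD of 6 libraries in black. The label groups overlap for each gene, and Ptbp1 lies below the other 9.

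Between the labels, none of the 10 regulators was called different. The likelihood ratio test of edgeR at an adjusted p under 0.1 called 0 of 10, beside 1.65% of all features tested, and the quasi-likelihood test of edgeR called 0 of 10, beside 0.453%. At an unadjusted p under 0.05 the count was again 0 of 10, beside 11.9% of all features. DESeq2 called 0 of the 9 members to which it gave an adjusted p (Ptbp1 received none), beside 177 of all features. It gave no adjusted p to 7009 of the 13902 features, so its adjustment covered fewer features than that of edgeR. The CPM of the label groups overlapped for all 10, while 1.01% of all features had groups apart. The fitted log2 fold change, label TAAR5-KO minus label WT, was above 0 for 6 members and below 0 for 4, with a median of 0.05 beside -0.01 for all features tested. These counts do not show equality. The 95% intervals lay between -0.37 and 0.37 on the log2 scale, that is between 0.776-fold and 1.29-fold.

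Within the Rbfox family the fitted differences had both signs, and none passed the test. Rbfox1 (ENSMUSG00000008658.18, chr16:5124665-7229391, plus strand of GRCm39) had a lowest, median and highest level of 57.8, 62.5 and 69.0 CPM under the label TAAR5-KO and of 49.1, 56.5 and 74.0 CPM under the label WT. The WT range enclosed the other one, with NK12 at its top and NK9 at its bottom. The log2 fold change was 0.12 with a standard error (SE) of 0.11, and the adjusted p of the likelihood ratio test of edgeR was 0.703. Rbfox3 (ENSMUSG00000025576.18, chr11:118380588-118802423, minus strand) ran through 21.5, 24.2 and 28.3 CPM under the label TAAR5-KO and 21.7, 24.1 and 33.9 CPM under the label WT. Only NK12, labelled WT, lay clear of the rest at the upper end. Its log2 fold change was -0.06 (edgeR adjusted p = 0.892, SE 0.12). Rbfox2 (ENSMUSG00000033565.20, chr15:76963190-77191204, minus strand), which is expressed beyond neurons, had 24.4, 26.3 and 30.9 CPM against 22.6, 24.8 and 28.2 CPM, with a log2 fold change of 0.08 (edgeR adjusted p = 0.800, SE 0.089). The 6 libraries labelled TAAR5-KO reached somewhat higher at both ends, and the groups overlapped.

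The ratio of Rbfox1 to Rbfox3 within a library separated the labels where the levels did not. This ratio of counts per kb of merged exon does not depend on how a library is scaled. Under the label TAAR5-KO it was 1.75 in both NK2 and NK3, 1.77 in NK6, 1.95 in NK4, 1.97 in NK5 and 2.00 in NK1. Under the label WT it was 1.58 in NK12, 1.59 in NK7, 1.62 in NK9, 1.68 in both NK8 and NK10, and 1.71 in NK11. All 6 libraries labelled TAAR5-KO lay above all 6 labelled WT, though by little at the closest point (NK2 and NK3 above NK11). The geometric means were 1.86 and 1.64. The difference in log2 ratio was 0.18 with an interval of 0.085 to 0.28. The two-sided exact permutation test over 924 assignments gave p = 0.00216, the smallest it can give. Adjusted over the 5 ratios tested, this permutation p was 0.0108. The 5 ratios were chosen with earlier results of these data known, which the adjustment does not cover. The levels behind the ratio were those of Rbfox1 at 63.2 ± 4.57 against 57.9 ± 8.99 CPM and Rbfox3 at 24.7 ± 3.01 against 25.6 ± 4.60 CPM (SD, n = 6). Neither difference in level passed the test.
Rbfox1 over Rbfox3 was the only 1 of the 45 pairs among the 10 members whose groups did not overlap, a count made after the data were seen. Of the ratios of Rbfox1 to every other feature tested, 104 of 13901 (0.748%) had groups apart, and of those of Rbfox3 36 of 13901 (0.259%) did. The separation was narrower once the dependence of each library on the GC content of genes had been removed. The exons of Rbfox1 hold 49.9% GC and those of Rbfox3 59.0%. The GC trend of a library, the fitted deviation of genes at 57% GC minus that at 38% GC, was -0.48 to 0.01 on the log2 scale under the label TAAR5-KO and -0.13 to 0.42 under the label WT. With that trend removed the log2 difference was 0.11 (exact permutation p = 0.0195, adjusted over the 5 ratios 0.0974, the highest of its alternatives), and the groups overlapped, with ratios of 1.72 to 1.91 under the label TAAR5-KO and 1.53 to 1.77 under the label WT. With the trend on gene length removed it was 0.16 (adjusted exact permutation p = 0.0216). Across the 12 libraries the log2 ratio and the GC trend had a Pearson's r of -0.61 (permutation p = 0.0356, adjusted over 25 relations 0.117; Spearman's rho -0.64, permutation p = 0.0302). Without NK1 and NK12 r was -0.22, and within the labels it was -0.18 and -0.26. The part of GC content in the difference was not tested beyond these values.

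**Figure D2:**
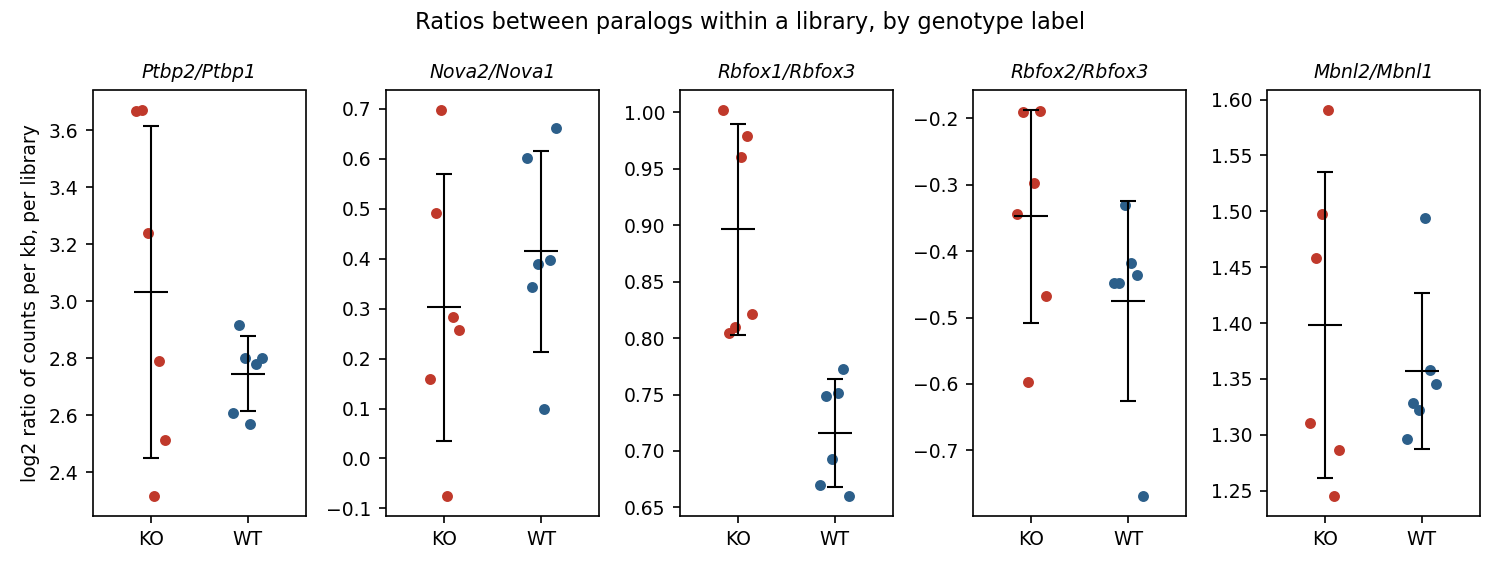
Log2 ratio of counts per kb within each library for 5 pairs of related genes, 1 point per library by genotype label, with the mean and SD of 6 libraries in black and a separate vertical axis for each pair. The labels separate for Rbfox1/Rbfox3 and overlap for the other 4 pairs.

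The other ratios between relatives overlapped. Ptbp2 over Ptbp1, which is high in neurons and low in most other cells, had a lowest, median and highest value of 4.98, 8.07 and 12.7 under the label TAAR5-KO and of 5.94, 6.91 and 7.55 under the label WT. The spread was wider among the libraries labelled TAAR5-KO, which took both ends. The log2 difference was 0.29 (interval -0.285 to 0.865, exact permutation p = 0.271, adjusted 0.451). Rbfox2 over Rbfox3 was 0.661 to 0.877 against 0.587 to 0.795, a log2 difference of 0.13 (-0.07 to 0.335, adjusted exact permutation p = 0.451). Nova2 over Nova1 was 0.949 to 1.62 against 1.07 to 1.58, a log2 difference of -0.11 (-0.42 to 0.20, adjusted exact permutation p = 0.528), which turned to 0.20 with the GC trend removed. Mbnl2 over Mbnl1 was 2.37 to 3.01 against 2.46 to 2.82, a log2 difference of 0.04 (-0.105 to 0.19, adjusted exact permutation p = 0.528). The widest of these intervals was that of the Ptbp pair. With the GC trend removed the log2 differences of the Ptbp, Rbfox2 to Rbfox3 and Mbnl pairs were 0.0006, 0.07 and 0.20. That of the Mbnl pair had an exact permutation p of 0.0433, adjusted over the 5 ratios 0.108.

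Ptbp2 (ENSMUSG00000028134.12, chr3:119512391-119578115, minus strand) had the largest fitted log2 fold change of the 10, and it was not called. Its lowest, median and highest levels were 29.2, 36.1 and 44.2 CPM under the label TAAR5-KO and 29.1, 31.2 and 40.5 CPM under the label WT. NK1, NK2 and NK3 were high in the first group and NK9 in the second, and the groups overlapped over most of their range. The log2 fold change was 0.15 (edgeR adjusted p = 0.636, interval -0.07 to 0.37, SE 0.11). Of the 10 members, Ptbp2 had the largest correlation with the GC trend of the library. Over 12 libraries Pearson's r of its log2 CPM with the trend was -0.86 (permutation p = 0.00016, adjusted over 25 relations 0.004) and Spearman's rho was -0.80 (permutation p = 0.00253). Within the labels r was -0.92 and -0.81, and without NK1 and NK12 it was -0.74. These relations were chosen after the data were seen. The exons of Ptbp2 hold 37.9% GC, close to the 38% at which the lower end of the trend was read. A gene there is expected to have a negative r, which the permutation p does not allow for. Mbnl1 at 37.8% and Nova1 at 37.3% had an r of -0.34 and -0.22 (adjusted permutation p = 0.465 and 0.690). With the trend removed, the log2 fold change of Ptbp2 was -0.04. The cause of the correlation was not tested.
Ptbp1 (ENSMUSG00000006498.17, chr10:79690261-79700605, plus strand) was the rarest member, with 20 to 101 counts per library. It had 1.56, 2.29 and 3.41 CPM under the label TAAR5-KO and 2.13, 2.57 and 2.95 CPM under the label WT, and a log2 fold change of -0.03 (edgeR adjusted p = 0.972, SE 0.17). Both the lowest library (NK2) and the highest (NK4) carried the label TAAR5-KO. Its coefficient of variation over the 12 libraries was 21.3%, and counting alone would give 16.4%. NK4 also held the highest sum of choroid plexus markers, 467 CPM, and the lowest 2 levels of Ptbp1, in NK1 and NK2, went with sums of 2.53 and 2.89 CPM. Other libraries did not follow that order. NK8 had the second highest choroid sum (285 CPM) and a Ptbp1 level of 2.13 CPM, and NK6 had a choroid sum of 8.03 CPM and a Ptbp1 level of 2.63 CPM. The choroid sums fell into separate clusters of 5 and 7 libraries, so no correlation is given, and the part of that tissue in the level of Ptbp1 was not tested. Other genes lie over the exons of Ptbp1 on the opposite strand, Gm17134 over 9.22% of its exon bases, E130317F20Rik over 6.22% and Plppr3 over 5.30%, and the strand setting of the counting was not stated, so part of these counts cannot be assigned. Of the other members, Rbfox1 had 3.81% of its exon bases under the opposite-strand Gm56595 (0 to 1 counts per library) and Mbnl2 0.717% under Gm26679 (0 to 10 counts).

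Rbfox3 and Rbfox1 varied across libraries together with markers of cortical pyramidal neurons. Rbfox3 was at 33.9 CPM in NK12, where the summed markers were highest (103 CPM), and at 21.5 CPM in NK4, where they were lowest (25.3 CPM). Over the 12 libraries Pearson's r of the log2 values was 0.84 (permutation p = 0.00067, adjusted over 25 relations 0.00838), and Spearman's rho was 0.89 (permutation p = 0.00035). It was 0.92 and 0.83 within the labels and 0.83 without NK4 and NK9. For Rbfox1 r was 0.69 (permutation p = 0.0131, adjusted 0.0655), with 0.80 and 0.90 within the labels. Nova1 ran the other way with r of -0.69 (permutation p = 0.00665, adjusted 0.0554) and rho of -0.79 (permutation p = 0.00314, adjusted 0.0262). For Rbfox2, Celf4, Nova2 and Ptbp1 r was 0.60, 0.61, 0.53 and -0.61 (adjusted permutation p = 0.117, 0.117, 0.166 and 0.117). For Ptbp2, Mbnl1 and Mbnl2 it was -0.18, 0.19 and 0.04. These relations were chosen after the data were seen. Summed markers of neurons in general were also lowest in NK4 (191 CPM) and highest in NK12 (292 CPM). No correlation with that sum was computed. Whether Rbfox3 followed cortical neurons or neurons in general was not tested. Cortical sums overlapped between the labels, and in bulk tissue fewer cells of a type and less RNA per cell cannot be told apart. Among the members themselves, the pair that varied most alike over the 12 libraries was Rbfox1 with Rbfox3 (r = 0.815) and the least alike pair was Rbfox3 with Nova1 (r = -0.620), as a description of libraries that share depth and composition.

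**Figure D3:**
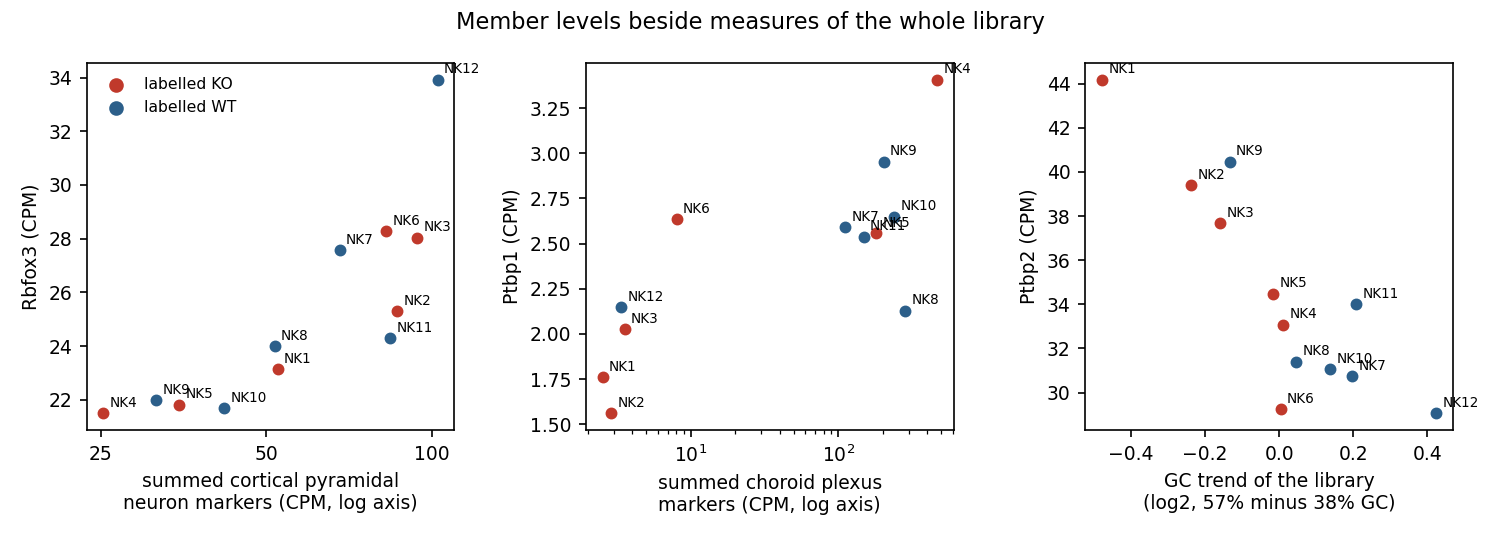
Left, Rbfox3 (CPM) against the summed cortical pyramidal neuron markers, middle, Ptbp1 (CPM) against the summed choroid plexus markers, both sums on a log axis, and right, Ptbp2 (CPM) against the GC trend of the library (log2), with 1 labelled point per library, red for label TAAR5-KO and blue for label WT. Rbfox3 is highest in NK12 (33.9 CPM), Ptbp1 peaks in NK4, and Ptbp2 falls from 44.2 CPM in NK1 to 29.1 CPM in NK12.

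Mbnl2 (ENSMUSG00000022139.18, chr14:120513081-120669109, plus strand) was the steadiest member, with a coefficient of variation of 6.36% over the 12 libraries. It had 48.6, 51.9 and 56.3 CPM under the label TAAR5-KO and 45.3, 49.2 and 50.5 CPM under the label WT. NK1, NK3 and NK4 exceeded every WT library and the other 3 lay among them. The log2 fold change was 0.10 (edgeR adjusted p = 0.660, interval -0.05 to 0.26, SE 0.080). Mbnl1 (ENSMUSG00000027763.14, chr3:60380251-60537171, plus strand) had 27.9, 31.5 and 34.8 CPM against 27.9, 29.9 and 31.4 CPM, with a log2 fold change of 0.06 (edgeR adjusted p = 0.831, SE 0.083). Both groups began at nearly the same level, and NK1 was the highest.

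The Nova genes, known for control of exons in synaptic proteins, were called by neither test of edgeR. Nova1 (ENSMUSG00000021047.8, chr12:46741300-46865712, minus strand) had 11.1, 14.2 and 15.4 CPM under the label TAAR5-KO and 13.2, 13.6 and 14.7 CPM under the label WT, with a log2 fold change of 0.03 (edgeR adjusted p = 0.942, interval -0.14 to 0.20, SE 0.087). NK3 was lowest and NK1 highest, both labelled TAAR5-KO. A gene on the same strand, Gm33869, covered 3.54% of its exon bases and had 13 to 53 counts per library. Nova2 (ENSMUSG00000030411.17, chr7:18659813-18699244, plus strand) had 13.4, 16.8 and 18.5 CPM against 14.8, 17.5 and 20.0 CPM, and a log2 fold change of -0.13 (edgeR adjusted p = 0.665, interval -0.32 to 0.07, SE 0.099). The lowest value was that of NK4 and the highest those of NK12 and NK7. Celf4 (ENSMUSG00000024268.17, chr18:25610689-25887214, minus strand), the most abundant member by CPM, had 64.8, 71.5 and 79.6 CPM under the label TAAR5-KO and 65.9, 73.4 and 84.7 CPM under the label WT. The log2 fold change was -0.07 (edgeR adjusted p = 0.821, interval -0.26 to 0.11, SE 0.094), and the groups overlapped nearly throughout.
The small differences went with GC content, and the relation turned to the opposite sign when the GC trend was removed. Across the 10 members the log2 fold change and the GC content of the exons had a Pearson's r of -0.65, and with the GC trend of each library removed it was 0.66. These are descriptions over genes that share the same libraries. The fitted value of Rbfox3, Nova1, Ptbp1, Ptbp2 and Mbnl1 changed sign under that removal, and none of the 10 was called with or without it. The values of Rbfox1 and Rbfox2 rose to 0.17 and 0.14. The values of Nova2, Mbnl2 and Celf4 went to -0.0034, 0.071 and -0.021.

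**Figure D4:**
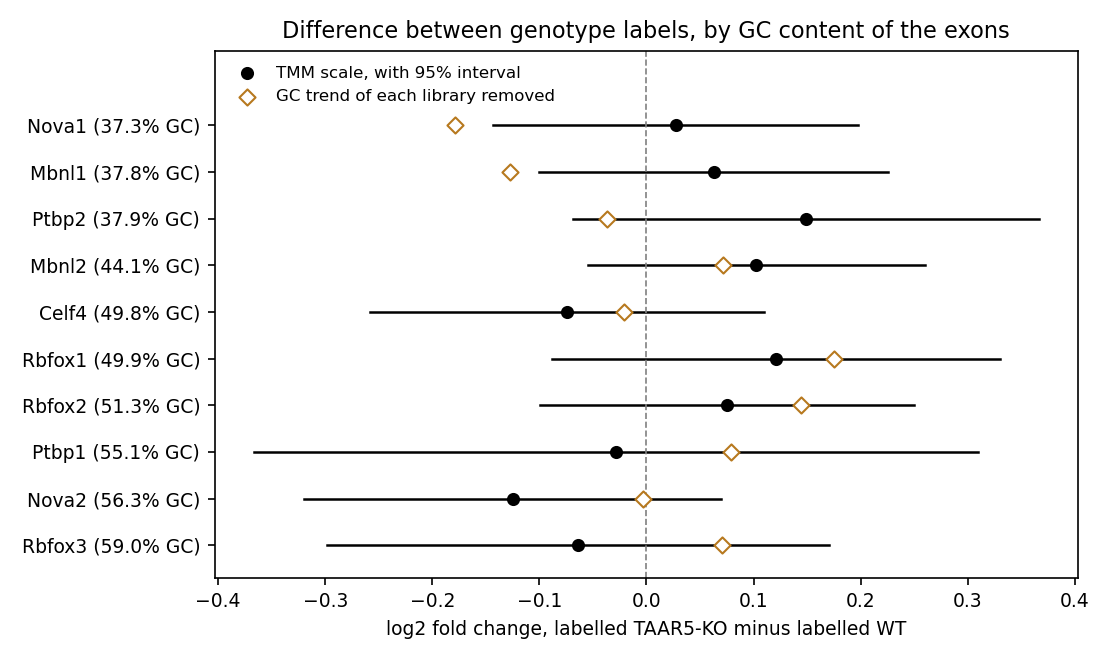
Fitted log2 fold change between the labels for each member, ordered by the GC content of its exons, with its 95% interval (black) and the value with the GC trend of each library removed (open diamonds). Each of the 10 black intervals includes 0, and the diamonds of Rbfox3, Ptbp1, Ptbp2, Mbnl1 and Nova1 lie on the other side of 0 from the black points.

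Other regulators of neuronal splicing were likewise not called. Of 17 listed (relatives of the members and the Elavl, Srrm, Khdrbs and Qki genes), 16 were tested and 0 were called by either test of edgeR, with 8 above and 8 below 0 and a median log2 fold change of -0.02. Mbnl3 had 0 to 4 counts and was not tested. Qki, the quaking RNA-binding protein of glia, had the smallest p. It was at 149.9 ± 5.14 CPM under the label TAAR5-KO and 174.5 ± 4.79 CPM under the label WT. Its 2 groups did not overlap (145 to 158 against 169 to 180 CPM), which held for 1 of the 16 and for 1.01% of all features tested. The log2 fold change was -0.22 (edgeR adjusted p = 0.194, SE 0.082), while DESeq2 gave an adjusted p of 3.55e-04 and the 24 alternatives ran from there to 0.700. It was the only 1 of the 16 at an unadjusted p under 0.05, beside 11.9% of all features tested. Astrocyte markers summed to 972 to 1190 CPM under the label TAAR5-KO and 1081 to 1273 CPM under the label WT. Oligodendrocyte markers summed to 572 to 700 and 609 to 780 CPM. Of the oligodendrocyte sums under the label WT, 5 of 6 lay at 728 to 780 CPM, above all 6 under the label TAAR5-KO, and only NK12 at 609 CPM lay among the latter. Microglia markers summed to 22.04 to 31.84 and 30.1 to 39.2 CPM. Of the tested markers, 1 of 6 for astrocytes, 0 of 6 for oligodendrocytes and 2 of 6 for microglia were called by the likelihood ratio test of edgeR. Each of the 3 glial sums had a lower minimum and maximum under the label TAAR5-KO, where Qki was lower, and their part in the level of Qki was not tested.
Proteins that work with Rbfox or Ptb proteins were not called either. Of 10 listed, 9 were tested, 0 were called by either test of edgeR (1.65% of all features by the likelihood ratio test) and 3 had an unadjusted p under 0.05 (11.9% of all features), with 7 above and 2 below 0 and a median of 0.09. Raver1, a partner of Ptbp1, was listed at 0 in all 12 libraries and shares exons with the readthrough gene Gm38431 (0 to 3 counts per library). Hnrnph1, a member of the Rbfox-bound assembly of splicing factors, had the smallest p, at 31.4 ± 2.50 against 26.1 ± 2.23 CPM (SD, n = 6) and a log2 fold change of 0.27 (edgeR adjusted p = 0.126, SE 0.089). Matr3 was at 39.8 ± 2.87 against 34.4 ± 1.41 CPM and Ddx5 at 98.9 ± 8.92 against 84.2 ± 8.71 CPM. These 3 genes were those with an unadjusted p under 0.05, and all were higher under the label TAAR5-KO. DESeq2 called Hnrnph1 and Matr3, beside 177 of all features. Over 24 alternatives the adjusted p of Hnrnph1 ran from 0.0546 (DESeq2) to 0.914, and Ddx5 was called in 0 of 24.
Genes with exons known to be controlled by these regulators were described by their total level only, since gene counts do not show which exons were kept. All 18 listed were tested, with 9 above and 9 below 0 and a median log2 fold change of 0.005. At an unadjusted p under 0.05 there were 3 of 18 (Camk2d, Src and Bin1), beside 11.9% of all features. Only 1 of the 18 was called by the likelihood ratio test, beside 1.65% of all features, namely Camk2d, a subunit of calcium/calmodulin-dependent kinase II with alternatively spliced exons. It had 11.4 to 17.7 CPM under the label TAAR5-KO and 17.8 to 22.2 CPM under the label WT. The groups of Camk2d thus did not overlap, which held for 1 of the 18 and for 1.01% of all features tested. Its mean fell from 20.1 ± 1.53 under the label WT to 15.5 ± 2.39 under the label TAAR5-KO, a log2 fold change of -0.37 (edgeR adjusted p = 0.0692, SE 0.11), and the quasi-likelihood test of edgeR gave an adjusted p of 0.151. It was called again without NK1, NK4, NK5, NK8 or NK12 and was lost when NK2, NK3, NK6, NK7, NK9, NK10 or NK11 was left out (edgeR adjusted p from 0.0328 to 0.207). Over all 24 alternatives the adjusted p ran from 7.93e-04 to 0.700.

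Each member was also set beside the tested gene whose log2 CPM varied most like its own over the 12 libraries, as a description. For Rbfox1 this was Kbtbd2 (r = 0.955 over 13901 genes compared), for Rbfox2 Ksr2 (0.889) and for Rbfox3 Kifc2 (0.949). For Nova1 it was Zic1 (0.929) and for Nova2 Scg3 (0.893). The nearest gene to Ptbp1 was Map10 (0.944), which reached at most 0.991 CPM, and that to Ptbp2 was Srek1ip1 (0.934). Mbnl1 had Gpr75 (0.864), Mbnl2 had Tmod3 (0.896) and Celf4 had Inpp5d (0.902). The 10 nearest genes were all different, and no member was the nearest gene of another. These libraries share depth and composition, and the highest r among 13901 genes is large by selection.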

How the data were processed

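RNA from the striatum of 6 mice labelled TAAR5-KO and 6 labelled WT was sequenced after depletion of ribosomal RNA (the labels also name the molecule polyA RNA). Reads were trimmed (cutadapt 4.1 in the submitters' processing notes), aligned with STAR 2.7.11b to GRCm39 and counted per gene with featureCounts 2.0.6 on GENCODE M35. The authors deposited raw counts per gene, neither normalized nor pooled, with the merged exon length of each gene. Whether the counting used strand, and what it did with reads of several positions, was not given in the sources used here. A column was taken as a replicate of its labelled genotype, because its NK number is tied to no animal, and 12 further columns of per-library values were not used. The 30 pairs of libraries with the same label differed by more than sampling noise (chi-square per degree of freedom of 6.78 to 349).

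The filter asked for 0.5 CPM or more in 3 or more libraries and left 13902 features. Counts were scaled by TMM factors (0.375 to 2.46) and compared with estimateDisp, glmFit and glmLRT of edgeR 4.0.16 (R 4.3.3), with Benjamini-Hochberg adjustment over all features tested and a threshold of 0.1. Filter, likelihood ratio test and threshold follow the study's methods, which name CPM as the normalization, while the TMM factors were a choice made here that changed the number of calls (the closing section gives it with library size only). The quasi-likelihood test of edgeR and DESeq2 1.42.0 were run beside it. An interval is 1.96 standard errors of the fit to either side. Paralog ratios used counts per kb with 0.5 counts added and a two-sided exact permutation test, whose inversion gave the intervals. Correlations across libraries used 100000 permutations. For each library, loess (span 0.5) gave the trends on GC content and on length. GC content came from the merged exons read on GRCm39. Members, lists and ratios were chosen with earlier results of these data known. The genes named are all members, the called genes of each list or else the gene with the smallest p, the gene most alike to each member, and genes that overlap a member's exons. Matr3, Ddx5, Src and Bin1 were named after their values were seen. A gene without counts may have up to 3, or 0.0678 to 0.361 CPM, which covers counting error only. The precision of a member follows from its own counts, 20 to 101 for Ptbp1 and 547 to 3747 for Celf4. Alternatives were other thresholds, filters, scalings, tools and dispersions, removal of ribosomal RNA features or of trends, and leaving out libraries, of which the canonical transcript length and leaving out NK4 and NK11 together were added after the data were seen.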

Additional observations from a re-analysis of the deposited data

Results flagged for a closer look

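Among 30 groups of 6 libraries (2 labels and 15 values, namely the levels of the 10 members and the 5 ratios), 2 held a library far from the other 5, where chance gives about 1 in 20 groups. The log2 ratio of Rbfox2 to Rbfox3 was -0.77 in NK12, labelled WT, with a gap to the nearest library of 0.732 of the group's range, and NK12 also held the highest level of Rbfox3 (33.9 CPM). The log2 ratio of Mbnl2 to Mbnl1 was 1.49 in NK10, labelled WT, with a gap of 0.686 of the range.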

How the results depend on the processing

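None of the 10 members was called in any of the 24 alternative fits (smallest adjusted p 0.362, smallest unadjusted p 0.0301, 1 adjusted p missing in DESeq2). The direction turned in 18 of the 240 values of a member in a fit. When libraries were scaled by their size alone, the log2 fold changes of Rbfox1, Rbfox2, Nova1, Ptbp2, Mbnl1 and Mbnl2 were -0.45, -0.45, -0.43, -0.37, -0.43 and -0.41, beside a median of -0.49 over all features. With the GC trend removed those of Rbfox3, Nova1, Ptbp1, Ptbp2 and Mbnl1 were 0.071, -0.18, 0.079, -0.037 and -0.13, and the log2 ratio of Nova2 to Nova1 differed by 0.20. With the length trend removed Mbnl1 was at -0.041, and without NK4 and NK11 Nova1 was at -0.0026. Leaving out 1 library at a time gave -0.11 to 0.033 for Rbfox3 (above 0 without NK12) and -0.13 to 0.063 for Ptbp1 (above 0 without NK1, NK2, NK3 or NK9). The Rbfox1 to Rbfox3 difference ran from 0.16 to 0.20 with adjusted exact permutation p of 0.0108 to 0.0325 over these 12 fits, and was 0.18 (0.0397) without NK4 and NK11. The cause of these shifts was not tested.

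Features called, 229 with the likelihood ratio test, were 108 at an adjusted p under 0.05, 63 with the quasi-likelihood test, 7 with library size only, 93 with no filter, 557 with robust dispersions, 84 with the GC trend removed, 150 without NK4 and NK11, and 85 (without NK11) to 414 (without NK4) with 1 library left out. Leaving out NK1 gave 114, NK2 114, NK3 137, NK7 102 and NK12 136. DESeq2 called 177. Of the other regulators 1, Qki, was called with the length trend removed, with the GC trend removed and by DESeq2. Of the partners 1 was called with robust dispersions, 2 by DESeq2 and 0 to 1 with 1 library left out (1, Hnrnph1, without NK3 or NK8). Of the target genes 0 were called at an adjusted p under 0.05, with the quasi-likelihood test, with library size only, with no filter and without NK4 and NK11, and 0 to 1 with 1 library left out. No paired analysis was possible because the columns of the count table carry no animal number. The mice were of both sexes, and sex was a covariate in no fit. Ptbp1, with at most 101 counts per library, had a counting coefficient of variation of 16.4% beside 21.3% in all.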
